A study of Mus musculus with 4 samples.

Results

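The glucocorticoid genes described here are both hormone receptors, Nr3c1 and Nr3c2, and 6 genes known to respond to the hormone: Fkbp5, Sgk1, Tsc22d3, Zbtb16, Pdk4 and Cdkn1a. They were taken by symbol, and all 8 were found, each under 1 identifier, among the 55403 features. Their unique molecular identifiers (UMIs, one per captured transcript) were counted per cell class and library in nuclei of mouse hippocampus, to see whether they moved alike in every class. The series holds 4 droplet libraries of nuclei from frozen, pooled hippocampus: 1 of wild-type (WT) mice, 2 of PS19 mice and 1 of TG_PS19 mice. PS19 mice carry human 1N4R tau with the P301S mutation (MAPT) under the prion protein (Prnp) promoter and are used as a tauopathy model. The TG_PS19 mice have in addition a SORLA transgene in the Rosa26 locus, driven by a CMV/β-actin promoter element. The mice are called aged in the series title, and the labels used here state neither their age nor their sex. The number of animals per pool, the time of day at killing and whether each PS19 library had animals of its own are not given in the sources used here.

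Glucocorticoid hormone, which is corticosterone in the mouse, enters cells and binds 2 nuclear receptors. The mineralocorticoid receptor (Nr3c2) binds it with high affinity, and the glucocorticoid receptor (Nr3c1) with lower affinity, so that the latter fills mainly at the daily peak and under stress. Hippocampal neurons are known for expressing both. The bound receptor moves to the nucleus and acts on genes near its binding sequences. Fkbp5 is a co-chaperone that lowers the hormone affinity of the receptor and so closes a feedback loop. Sgk1 is a kinase first found as induced by serum and glucocorticoid, and Tsc22d3 encodes GILZ, which mediates part of the anti-inflammatory action. Zbtb16 encodes the zinc-finger repressor PLZF. Pdk4 restrains the use of pyruvate in mitochondria and is also raised by fasting. Cdkn1a encodes the cell-cycle inhibitor p21, best known as a target of p53.

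The promoters show where a receptor sequence lies close to a member's start. RefSeq windows (build GRCm38.p6, from 250 bases before to 50 after an annotated start) were matched for 6 of the 8 genes, in 14 windows. The palindrome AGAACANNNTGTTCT, searched on both strands, was present in 3 of 32851 windows of all genes (0.00913%). It occurred in 1 of the 6 windows of Sgk1, which is therefore printed, with the palindrome in capitals; the bases before the start are chr10:21993640-21993889, plus strand, and the palindrome begins 189 bases before the start.

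Sgk1: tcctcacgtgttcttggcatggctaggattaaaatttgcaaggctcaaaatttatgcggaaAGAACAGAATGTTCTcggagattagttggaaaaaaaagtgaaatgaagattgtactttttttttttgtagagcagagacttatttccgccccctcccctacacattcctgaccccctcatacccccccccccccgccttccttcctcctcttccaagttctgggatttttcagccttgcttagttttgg

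A single arm (AGAACA or TGTTCT, which the palindrome also contains) was far more common, in 6233 windows or 19.0%. It was found in 3 of the 6 windows of Sgk1 and in 1 of 3 of Tsc22d3, and in none of those of Cdkn1a, Fkbp5, Nr3c2 and Pdk4. The stretch of Tsc22d3 around it is printed with the arm in capitals; on the minus strand of chromosome X it covers bases 140600702 to 140600707 and begins 185 bases before the start.

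Tsc22d3: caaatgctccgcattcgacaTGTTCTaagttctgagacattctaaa

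These matches describe letters in short windows and say nothing of binding at a distance. Fkbp5 (17:28399094-28517527), Zbtb16 (9:48654297-48836222), Pdk4 (6:5483351-5496309) and Nr3c1 (18:39410545-39519421) lie on the minus strand in GENCODE M21 (GRCm38), as does Tsc22d3 (X:140539528-140600659). Sgk1 (10:21882184-21999903), Cdkn1a (17:29090976-29100727) and Nr3c2 (8:76899442-77245012) lie on the plus strand. Nr3c2 overlaps the opposite-strand gene Gm10649 by 1180 bases, and Fkbp5 overlaps AC154912.1 on the opposite strand by 9958. Whether counting used strand is not given in the sources used here, so reads of these pairs may not be separable. On its own strand Fkbp5 also overlaps AC154912.3 by 3612 bases and AC154912.5 by 1708, where strand does not separate reads.

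The libraries held 4643 to 12762 barcodes and 20064025 to 48670533 UMIs. After filters and removal of doublets 29616 nuclei remained, and 12 marker-defined classes had at least 50 nuclei in every library. Dentate granule and CA1 neurons, which define hippocampal tissue, were among them. The median UMI count per nucleus was higher in both PS19 libraries than in WT in 11 of the 12 classes. Levels below are UMIs per 1000000 UMIs of the class (CPM) in the order WT, PS19 replicate 1, PS19 replicate 2 and TG_PS19. They compare libraries for 1 gene, not genes with each other, since counts from the 3′ end are not per length. Between 5 and 32 barcodes were shared by any pair of libraries.

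The TG_PS19 library stood apart in its sex-linked transcripts, so the members are given for the whole library and for both kinds of its nuclei. Of its 8963 nuclei, 51.0% had UMIs of Xist and none of the 4 Y-linked genes, and 24.2% had the reverse; 366 nuclei had both and the rest neither. In the other libraries 26, 5 and 6 nuclei had Xist only, against 7794, 3201 and 3563 with Y-linked UMIs only. The first kind is called Xist-called below and the second Y-called. Both kinds of TG_PS19 nuclei carried both transgenes: human SORL1 stood at 78.8 CPM in Xist-called and 42.5 CPM in Y-called nuclei, and human MAPT at 11.5 and 15.2 CPM. In the 4 whole libraries MAPT UMIs numbered 0, 334, 458 and 437, and SORL1 UMIs 2, 7, 0 and 2199.

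PS19 was compared with WT in each class by edgeR's quasi-likelihood F-test (two-sided, adjusted by Benjamini-Hochberg within the class at 0.05). Zbtb16 was higher in PS19 in 7 classes, among them glia, vessels, fibroblasts and dentate granule neurons, and Fkbp5 in 5. Cdkn1a was higher in 2 classes, Sgk1 and Pdk4 in oligodendrocytes alone and Tsc22d3 in endothelial cells alone. Of 96 gene-class pairs 73 had enough counts to be tested. Of these, 17 were higher and 1 was lower, together 24.7%, with a median log2 difference of 0.27. Over all genes and classes 2.68% of tests were called, 1.20% higher and 1.48% lower, and the class medians of all genes lay within 0.03 of 0. With DESeq2, 10 of the member pairs were called, all higher, where 0.281% of all tests were. WT is a single library and the spread comes from the PS19 pair alone, so the lone libraries are assumed to vary like that pair. With 1 residual degree of freedom per class, edgeR drew most or all of each gene's spread from a trend over all genes. Its prior degrees of freedom were infinite in oligodendrocytes and 111.5 in astrocytes. Small p-values thus rest on this shared spread within the PS19 pair, which may be technical, and not on the gene's own spread.

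The difference of PS19 from the single WT library was not alike in all classes, and genotype cannot be told apart from library or animals here. A joint fit of all class sums tested, for each gene, whether its difference varied between the 12 classes. That was so for 7.62% of all genes and for 5 of the 8 members: Zbtb16 (edgeR adjusted p = 2.78e-18), Sgk1 (3.82e-13), Fkbp5 (5.95e-11), Pdk4 (0.00358) and Nr3c2 (0.0388). With doublets kept the count was 3. The 11 residual degrees of freedom of the joint fit all came from the PS19 libraries. The fit treated class sums of the same library, which share animals, as independent, so these p-values may be too small. The other members missed the threshold, Tsc22d3 at 0.0609, Cdkn1a at 0.123 and Nr3c1 at 0.348, which does not show that they moved alike.

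**Figure D1:**
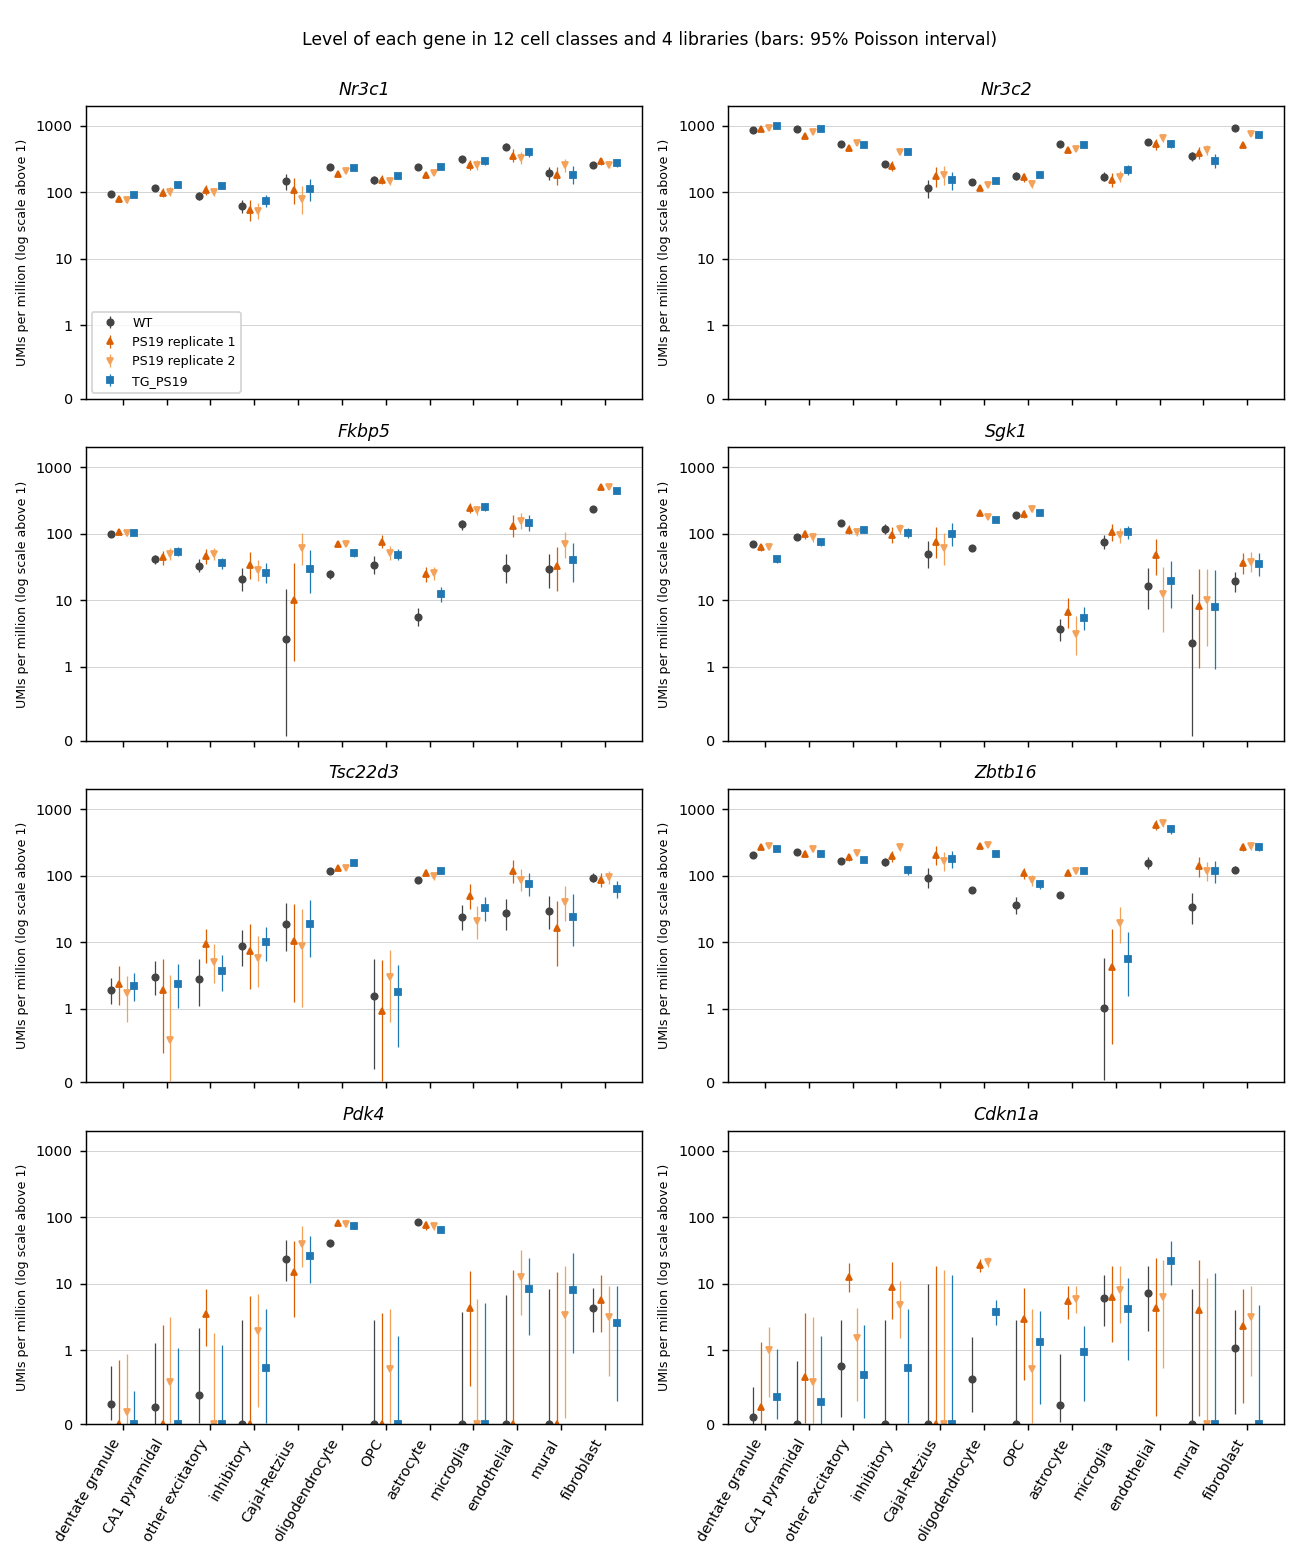
Level of each gene (CPM, log scale above 1) in 12 cell classes, with 1 point per library and 95% Poisson intervals as bars. In oligodendrocytes Zbtb16 stands at 61.4 in WT and at 276 and 287 in the PS19 libraries, while in CA1 neurons the 4 values of Zbtb16 lie between 214 and 251.

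Oligodendrocytes, the myelin-forming cells and the largest class, had 5 of 8 members higher in PS19, where 2.56% of all genes tested in the class were higher. Zbtb16 stood at 61.4, 276, 287 and 211 CPM. Both PS19 libraries were far above WT and close to each other, and the log2 difference was 2.25 ± 0.15 (SE; adjusted p = 1.29e-49). Sgk1 stood at 60.8, 203, 180 and 162 CPM, a log2 difference of PS19 from WT of 1.70 ± 0.14 (adjusted p = 4.81e-30). Fkbp5 stood at 24.8, 71.2, 71.7 and 51.0 CPM, a log2 difference of 1.58 ± 0.16 (adjusted p = 1.01e-19). In all 3 genes the PS19 libraries lay close to each other and TG_PS19 between them and WT.

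Pdk4, in the same cells, stood at 41.1, 83.6, 78.5 and 73.2 CPM, with a log2 difference of PS19 from WT of 1.03 ± 0.15. Cdkn1a was nearly absent from WT oligodendrocytes, with 4 UMIs in 3240 nuclei, against 89 in 1813 and 127 in 1840 PS19 nuclei and 24 in 2993 TG_PS19 nuclei. Its levels were 0.611, 19.0, 21.6 and 3.79 CPM, and its log2 difference of PS19 from WT was 5.06 ± 0.44 (edgeR adjusted p = 4.73e-28). Tsc22d3 did not pass the test, at 116, 131, 131 and 155 CPM.

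The difference was seen in the share of nuclei as well as in the sums. With every oligodendrocyte thinned to 1000 UMIs, which left out 2 to 117 shallower nuclei per library, Zbtb16 was detected in 5.82%, 23.5%, 24.3% and 16.7% of nuclei (10.9%, 45.7%, 50.6% and 29.7% unthinned, at median depths of 1930, 2407, 3022 and 1997 UMIs). In microglia, where the gene is nearly silent, the thinned shares were between 0 and 1.33%. Sgk1 was detected in 6.10%, 17.6%, 16.6% and 13.4% of thinned oligodendrocytes, and in astrocytes, which hold little of it, in 0.27% to 0.84%.

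Oligodendrocytes fell into a pair of clusters, and both showed the PS19 difference. In the larger one Zbtb16 was at 66.5, 325, 349 and 232 CPM and in the other at 55.1, 232, 228 and 188. Sgk1 followed, at 71.2, 249, 221 and 198 CPM in the first and 47.9, 162, 141 and 124 in the second. Cdkn1a lay mostly in the first, with 2, 80, 109 and 20 UMIs there and 2, 9, 18 and 4 in the second.

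Markers of astrocytes and of neurons did not rise with these genes in the sums of oligodendrocytes. Sums of the other marker lists in this class are not given here, and the part of transcripts from other cells was not tested. The 10 astrocyte markers summed to 693, 307, 262 and 502 CPM and the 6 general neuron markers to 308, 136, 88.0 and 195, in both cases lowest in PS19 replicate 2. Every one of these markers was detected in every library.

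Astrocytes had 3 of 8 members higher in PS19, beside 2.96% of all genes tested there. Fkbp5 stood at 5.61, 24.6, 25.9 and 12.3 CPM, a log2 difference of PS19 from WT of 2.15 ± 0.28 (edgeR adjusted p = 3.31e-09). Zbtb16 stood at 50.6, 111, 116 and 115 CPM, a log2 difference of 1.15 ± 0.15. For both genes the PS19 pair lay at least 2-fold above WT. Sgk1, which moved so far in oligodendrocytes, had only 28, 16, 10 and 28 UMIs in astrocytes, and Pdk4 stood there at 84.8, 76.2, 74.5 and 65.6 CPM; neither passed the test.

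Cdkn1a rose in PS19 astrocytes from 2 UMIs to 13 and 19, a call that DESeq2 did not make (adjusted p = 0.273). Those UMIs came mostly from 1 cluster led by Myoc and Gfap, a marker of reactive and fibrous astrocytes, where the libraries had 0, 13, 17 and 0. That cluster held 9.26%, 28.2%, 25.6% and 5.98% of astrocytes. In the main astrocyte cluster Fkbp5 was at 5.0, 24.3, 25.4 and 11.9 CPM and Zbtb16 at 52.6, 123, 124 and 115.

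In the vessels the same genes were higher on smaller counts. Endothelial cells had Zbtb16 at 156, 574, 623 and 495 CPM, a log2 difference of PS19 from WT of 1.97 ± 0.27 by edgeR, and Fkbp5 at 30.8, 134, 159 and 146 (17, 31, 51 and 53 UMIs), a log2 difference of 2.27 ± 0.41. Tsc22d3 was called in this class alone, at 27.2, 116, 87.2 and 74.2 CPM. Thus 3 of 6 tested members were higher in a class where 0.321% of all genes were. DESeq2 made the Zbtb16 call and not the other 2. All 3 endothelial calls were lost with doublets kept, with nuclei thinned, among Y-called nuclei and with edgeR's adjusted residual degrees of freedom. Oligodendrocyte markers in the endothelial class summed to 1241, 1626, 642 and 1715 CPM and mural markers to 27.2 CPM in WT, 151 and 71.6 in PS19 and least in TG_PS19; the part of such transcripts in the result was not tested. Mural cells had Zbtb16 at 33.7, 138, 117 and 116 CPM, a log2 difference of 1.90 ± 0.41 that was lost under DESeq2, with doublets kept, with nuclei thinned and among Y-called nuclei.

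Leptomeningeal fibroblasts, the cells of the membranes around the brain, had the highest Fkbp5 of any class, 236, 504, 517 and 441 CPM, and a log2 difference of PS19 from WT of 1.14 ± 0.16 (edgeR adjusted p = 1.72e-09). Zbtb16 stood there at 124, 269, 277 and 269 CPM, a log2 difference of 1.16 ± 0.18. In both genes the PS19 libraries agreed closely and lay about 2-fold above WT. Microglia, the resident immune cells, had Fkbp5 at 139, 246, 226 and 256 CPM, a log2 difference of 0.77 ± 0.19, a call lost under DESeq2, with nuclei thinned and among Y-called nuclei. Their Zbtb16 was at 1, 2, 12 and 4 UMIs. Oligodendrocyte precursors had Zbtb16 at 35.9, 109, 84.5 and 74.8 CPM, a log2 difference of 1.45 ± 0.25 that DESeq2 did not call. Their Sgk1 stood at 189, 202, 241 and 209 CPM and did not pass the test.

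Few of the calls were in neurons. By direction alone, the log2 difference of PS19 from WT was above 0 in 12 of 12 classes for Fkbp5 and in 11 of 12 for Zbtb16. The lowest values were 0.08 for Fkbp5 and -0.03 for Zbtb16. Sgk1 was above 0 in 7 of 11 tested classes and Tsc22d3 in 6 of 9. All of these share the single WT library. Of the 5 neuronal classes, dentate granule neurons had 1 member called, beside 3.24% of all genes there: Zbtb16, at 205, 268, 281 and 247 CPM, a log2 difference of PS19 from WT of 0.44 ± 0.10 by edgeR, which was lost under DESeq2 and with nuclei thinned. Fkbp5 in these cells was at 101, 109, 102 and 104 CPM, on 462 to 1123 UMIs per library, and Sgk1 at 70.9, 62.7, 63.6 and 41.3. In CA1 pyramidal neurons Zbtb16 was at 228, 215, 251 and 214 CPM, Fkbp5 at 41.2, 44.4, 50.6 and 54.1 and Sgk1 at 90.9, 99.0, 88.7 and 74.8, with WT inside or next to the PS19 range in each. In the other 4 neuronal classes, CA1, Cajal-Retzius, inhibitory and other excitatory neurons, edgeR called 0 of 23 tested pairs and DESeq2 called 0. Over all genes edgeR called 0.260% to 0.690% in these classes, so 0 calls is near that share. Of the 23 pairs, 7 were at an unadjusted edgeR p under 0.05, beside 15429 of 145268 tests over all genes and classes. In Cajal-Retzius neurons the counts were small: Fkbp5 had 1 UMI in WT, against 2 and 14 in PS19, and Zbtb16 in the same cells stood at 92.7, 204, 167 and 177 CPM. CA1 neurons held 1555445 to 4291981 UMIs per library, more than the endothelial cells, mural cells and microglia in which calls were made. Cajal-Retzius neurons held only 196033 to 377756, beside 231796 to 551134 in endothelial cells. The CA1 sums came from 97 and 98 nuclei in the PS19 libraries. The part of depth and of nucleus numbers in the calls was not tested.

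**Figure D2:**
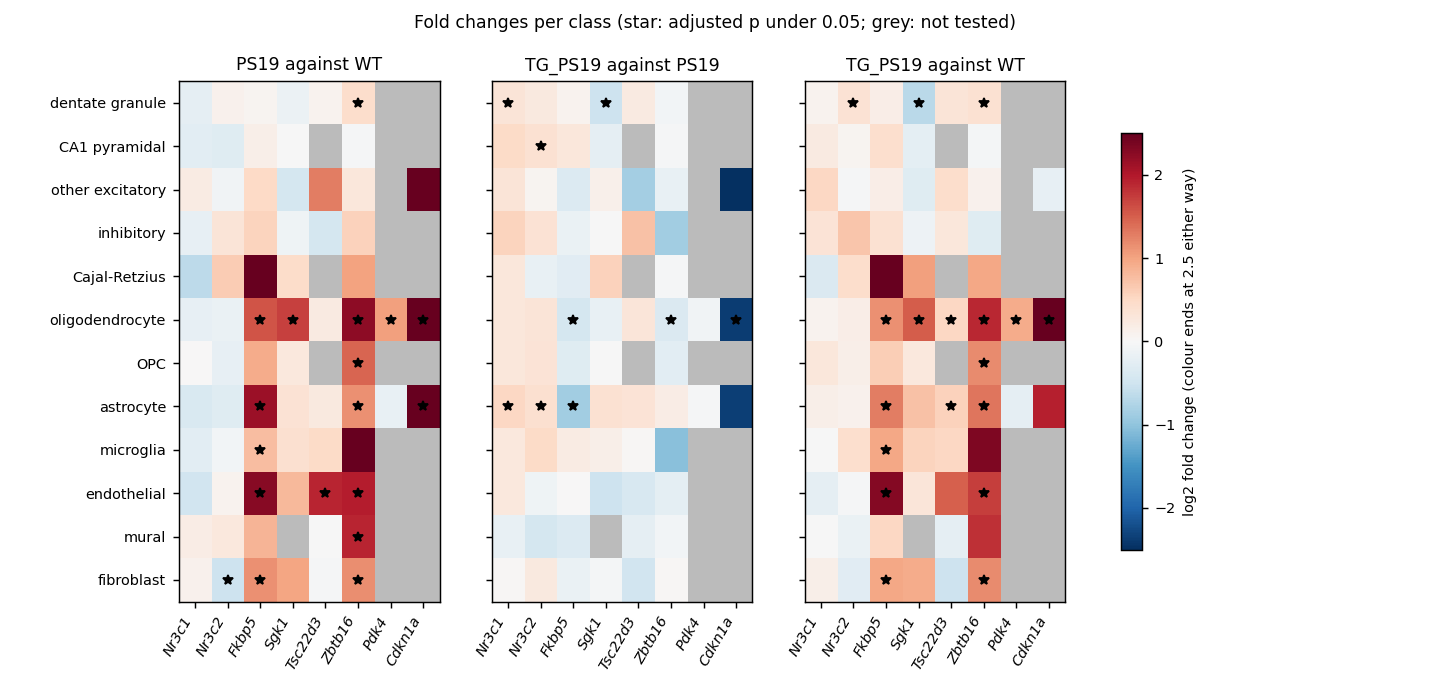
Log2 difference of each gene (columns) in each class (rows) for the 3 comparisons, as colour that ends at 2.5 either way; a star marks an edgeR adjusted p under 0.05 and grey a pair not tested. PS19 against WT has 18 stars, 5 of them in oligodendrocytes and 1 in a neuronal class; TG_PS19 columns hold Xist-called and Y-called nuclei together, and 9 called rises over WT turn sign in Y-called nuclei alone.

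No class had a receptor called higher in PS19, beside 1.20% of all tests. Nr3c1 was called in 0 of 12 classes by edgeR and in 0 by DESeq2, beside 2.68% and 0.281% of all tests. With so few tests, 0 is near those shares. Nr3c1 was at an unadjusted p under 0.05 in 2 classes by edgeR and in 0 by DESeq2. Its log2 differences of PS19 from WT ran from -0.65 to 0.20. It stood at 237, 187, 208 and 233 CPM in oligodendrocytes and at 240, 179, 196 and 240 in astrocytes, with both PS19 libraries below the others. Nr3c2 had log2 differences from -0.52 to 0.64, above 0 in 5 of 12 classes, with 3 classes at an unadjusted p under 0.05. It was lower in PS19 fibroblasts, at 920, 507, 758 and 722 CPM, a log2 difference of -0.52 ± 0.14. That call differed between the PS19 libraries: without replicate 1 the value was -0.25 and without replicate 2 it was -0.84, and neither DESeq2 nor the thinned nuclei gave it. In dentate granule neurons, where its mean over the libraries is highest, it stood at 848, 881, 929 and 1004 CPM.

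TG_PS19 was then compared with PS19, a comparison in which the SORLA transgene cannot be told apart from library, animals and sex. Taken as a whole library, TG_PS19 had 9 of 73 pairs called (12.3%, beside 4.75% of all tests), 4 higher and 5 lower, where 3.20% of all tests were higher and 1.55% lower. With library totals in place of trimmed-mean scaling, the median of all genes moved by up to -0.18 on the log2 scale and the share of higher calls over all genes went from 67.4% to 47.6%. Lower in TG_PS19 were Fkbp5 in astrocytes (log2 difference -0.86 ± 0.27) and oligodendrocytes (-0.44 ± 0.15), Zbtb16 and Cdkn1a in oligodendrocytes (-0.36 ± 0.13 and -2.37 ± 0.30) and Sgk1 in dentate granule neurons (-0.52 ± 0.13). Higher were Nr3c1 in astrocytes and dentate granule neurons (0.53 and 0.32) and Nr3c2 in astrocytes and CA1 neurons (0.41 and 0.38). The 4 receptor calls were lost with library totals, and so was Fkbp5 in oligodendrocytes. Nr3c1 in dentate granule neurons turned sign with nuclei thinned (-0.089). Thinning also lost the lower calls of Fkbp5 in both classes, Zbtb16 in oligodendrocytes and Sgk1 in dentate granule neurons. Fkbp5 in astrocytes was lost with doublets kept, and Zbtb16 under another scaling (relative log expression). Cdkn1a in oligodendrocytes was kept by all 12 alternatives that give a test. With Y-called and Xist-called nuclei taken apart, Nr3c1 was at 0.58 and 0.46 in astrocytes and 0.62 and 0.19 in dentate granule neurons, and Nr3c2 at 0.48 and 0.35 in astrocytes and 0.51 and 0.27 in CA1 neurons; with Xist-called nuclei only Nr3c1 in astrocytes passed the test. DESeq2 called 0 pairs (beside 0.720% of all tests), with 7 at an unadjusted p under 0.05, and gave no adjusted p for Cdkn1a in oligodendrocytes. Of the 8 members, 0 differed between classes by the joint edgeR fit, with 2 at an unadjusted p under 0.05, where 5.67% of all genes did. That does not show that they moved alike, since the joint fit can miss changes. On counts simulated for PS19 against WT, with a fixed spread shared by all genes, it recovered 13% of 2-fold changes set in oligodendrocytes alone. Its recovery in TG_PS19 against PS19 was not simulated. In a fit of the 4 largest classes Zbtb16 and Fkbp5 did differ, beside 5.72% of all genes.

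Against WT, TG_PS19 had 18 of 73 pairs called (24.7%, beside 2.37% of all tests, 1.66% higher and 0.712% lower), 17 higher and 1 lower; DESeq2 called 3 (beside 0.162%), Zbtb16 in astrocytes and oligodendrocytes and Sgk1 in oligodendrocytes. This comparison shares the WT library with that of PS19, and its calls over all genes were 69.9% higher, or 47.5% with library totals. Oligodendrocytes had 6 members higher, beside 2.20% of all genes in the class: Zbtb16 (log2 difference 1.88), Sgk1 (1.52), Fkbp5 (1.14), Pdk4 (0.94), Cdkn1a (2.69) and Tsc22d3 (0.52). Zbtb16 and Sgk1 were kept by 11 of 13 alternatives that give a test, and Fkbp5 and Pdk4 by 9 of 13. Cdkn1a was kept by 8 of 12 and Tsc22d3 by 7 of 13, both lost with library totals and with nuclei thinned. Sgk1 in dentate granule neurons was lower, by -0.67 ± 0.14. By the joint edgeR fit the difference from WT varied between classes for Zbtb16 (adjusted p = 1.44e-14), Sgk1 (7.04e-11), Fkbp5 (0.000796) and Pdk4 (0.0278), where 2.60% of all genes did. The p-values of the joint fit again treat class sums of the same library as independent. The whole-library values of this comparison average the Y-called and Xist-called nuclei, which differed widely.

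In oligodendrocytes the Y-called TG_PS19 nuclei had Zbtb16, Sgk1, Fkbp5 and Pdk4 near or below the WT level, and the Xist-called nuclei had them above both PS19 libraries. Sgk1 stood at 32.8 CPM in 795 Y-called nuclei and at 321 in 1149 Xist-called ones. WT was at 60.8 and the PS19 libraries at 203 and 180, so that the 2 parts of a single library bracketed all others. Zbtb16 stood at 73.5 and 374 CPM, Fkbp5 at 18.9 and 85.6 and Pdk4 at 40.1 and 120, in the same order of Y-called and Xist-called nuclei. Tsc22d3 stood at 134 and 171 CPM, and Cdkn1a had 2 and 15 UMIs, both levels far under those of PS19.

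In other glia, fibroblasts and vessels Xist-called nuclei were also the higher part for the genes given next, though not above PS19 in every case. In astrocytes Zbtb16 was at 37.4 and 178 CPM, Fkbp5 at 3.2 and 19.2 (the latter under both PS19 libraries) and Tsc22d3 at 57.4 and 168. In fibroblasts Zbtb16 was at 57.4 and 370 CPM and Fkbp5 at 121 and 593. In microglia Fkbp5 was at 103 and 357 CPM, in endothelial cells Zbtb16 was at 215 (above WT) and 691, and in precursors at 35.1 and 102. In neurons 0 of the pairs with at least 10 UMIs to be looked for in the smaller part were past 2-fold. Over all genes in the neuronal classes, 0.942% to 4.28% were past 2-fold higher in Xist-called nuclei and 0.545% to 2.72% lower. With so few member pairs, 0 is near those shares, and whether neurons differed from glia in this was not tested. In dentate granule neurons Zbtb16 stood at 231 and 258 CPM, Fkbp5 at 96.7 and 107 and Sgk1 at 36.3 and 43.6, and in CA1 neurons Zbtb16 stood at 198 and 226, Fkbp5 at 53.6 and 55.2 and Sgk1 at 63.2 and 90.8. The widest neuronal ratio was that of Nr3c2 in other excitatory neurons, at 755 CPM in Y-called and 396 in Xist-called nuclei.

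**Figure D3:**
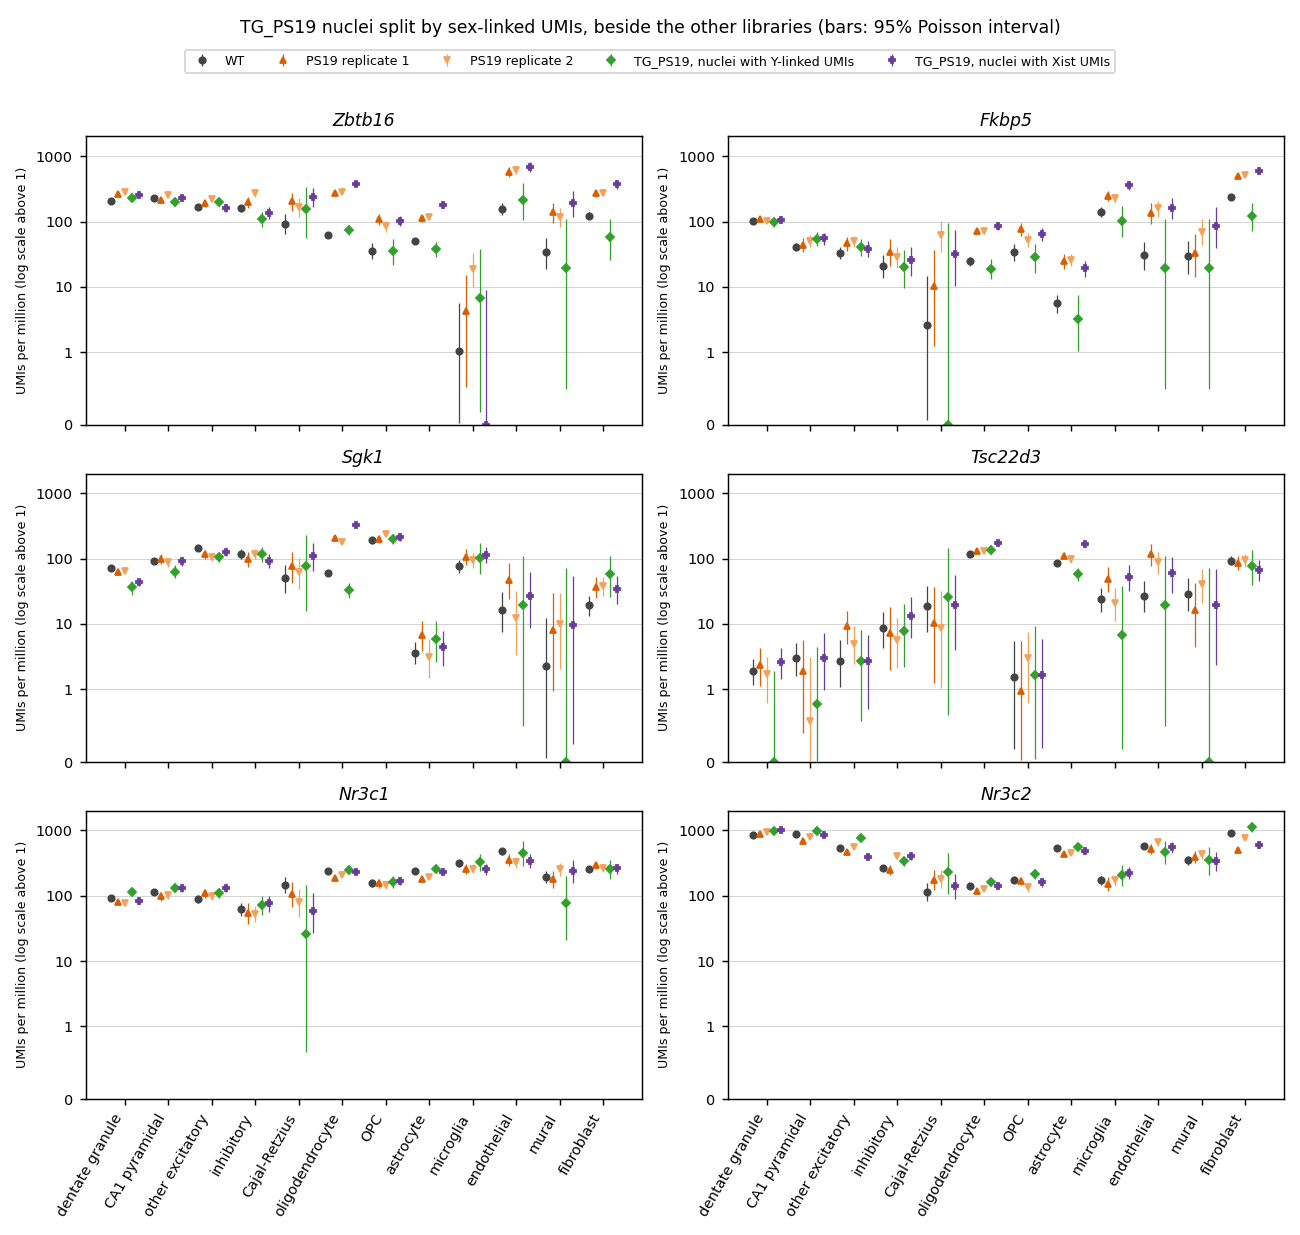
Level of 6 of the genes (CPM, log scale above 1, 95% Poisson intervals) in WT, the PS19 libraries and the Y-called and Xist-called nuclei of TG_PS19, by class. In oligodendrocytes Sgk1 stands at 32.8 in Y-called and at 321 in Xist-called nuclei of the 1 library, while Nr3c1 stands at 249 and 229.

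Counted over 51 gene-class pairs with at least 10 UMIs to be looked for in the smaller part, 13 were past 2-fold higher in Xist-called nuclei, 0 past 2-fold lower, and 38 under 2-fold. Over all genes 2.40% were past 2-fold higher and 1.41% lower. Fkbp5 and Zbtb16 were past it in 5 of 9 classes each, Sgk1 in 1 of 7, Tsc22d3 in 1 of 3 and Pdk4 in 1 of 2; Nr3c1 was in 0 of 10 and Nr3c2 in 0 of 11. Both parts come from 1 library, so there is no test of this difference, and intervals cover counting error only. Sex, animal and, with pooled mice, any state that differed between animals cannot be told apart here. Tsc22d3 is itself on the X chromosome. Median depth was close, at 2159 UMIs in Y-called and 2063 in Xist-called oligodendrocytes.

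The tests depended on which nuclei stood for TG_PS19. With Y-called nuclei alone, 19 pairs were called against PS19 (beside 3.11% of all tests) and 2 against WT (beside 1.21%). In oligodendrocytes the differences from PS19 were then -2.49 ± 0.19 for Sgk1, -1.89 ± 0.17 for Zbtb16, -1.87 ± 0.23 for Fkbp5, -0.96 ± 0.19 for Pdk4 and -4.12 ± 0.61 for Cdkn1a, and Sgk1 was lower than in WT by -0.79 ± 0.23 (edgeR adjusted p = 0.0299). With Xist-called nuclei alone, 10 pairs were called against PS19 (beside 4.36%) and 20 against WT (beside 2.80%). Sgk1, Pdk4 and Zbtb16 in oligodendrocytes were then higher than in PS19 by 0.81 ± 0.13, 0.63 ± 0.14 and 0.47 ± 0.13, while Cdkn1a was lower by -1.71 ± 0.36. The direction against PS19 thus turned with the nuclei for Sgk1, Pdk4, Zbtb16 and Fkbp5 in oligodendrocytes (Fkbp5 at 0.32 in Xist-called nuclei, not past the threshold), and did not for Cdkn1a, nor for Sgk1 in dentate granule neurons (-0.73 and -0.44).

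Y-called nuclei were also compared in every library, a choice made after the data had been seen. PS19 then had 13 pairs called against WT (beside 2.44% of all tests), 12 higher and 1 lower, among them Zbtb16 (2.32 ± 0.15), Sgk1 (1.63 ± 0.15), Fkbp5 (1.61 ± 0.19), Pdk4 (1.04 ± 0.17) and Cdkn1a (4.51 ± 0.53) in oligodendrocytes. In Y-called oligodendrocytes the levels of Zbtb16 were 55.7, 266, 275 and 73.5 CPM and those of Sgk1 were 61.8, 193, 179 and 32.8. TG_PS19 had 20 pairs called against PS19 (beside 3.29%), 13 of them lower, and 2 against WT (beside 1.22%), both lower: Sgk1 in oligodendrocytes and in dentate granule neurons.

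Across classes the receptors and targets had different homes. These ranks are by the mean over 4 libraries, and genes that differ between libraries can rank otherwise in WT. Nr3c1 was highest in endothelial cells, at 389 ± 67 CPM (SD), above the range of microglia (280 ± 27), and lowest in inhibitory neurons (60.7 ± 9.7). Nr3c2 was highest in dentate granule (916 ± 68) and CA1 neurons (817 ± 96), whose ranges overlapped, and lowest in oligodendrocytes (134 ± 14). Fkbp5 was highest in fibroblasts and microglia, and Sgk1 in precursors (210 ± 22) and oligodendrocytes (151 ± 63), with overlapping ranges; in WT alone, oligodendrocytes (60.8) were below CA1 (90.9), inhibitory and other excitatory neurons and microglia (76.5). The mean of Zbtb16 was highest in endothelial cells (462 ± 211), whose range overlapped that of dentate granule neurons (250 ± 33), and lowest in microglia (7.5 ± 7.9). In WT alone CA1 (228) and dentate granule neurons (205) stood above endothelial cells (156). Pdk4 was highest in astrocytes (75.3 ± 7.9) and oligodendrocytes (69.1 ± 19.1), whose ranges overlapped, then in Cajal-Retzius neurons (26.1 ± 10.1), with means under 6 elsewhere. Tsc22d3 was highest in oligodendrocytes (133 ± 16) and astrocytes (103 ± 13) and under 3 in dentate granule and CA1 neurons and precursors. These SDs include the genotype and the mix of TG_PS19.

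The genes whose levels ran most like a member's over the 48 class and library sums were ranked by the correlation of log2(CPM + 10), as a description in which sums share libraries. For Nr3c1 they were Elf1 (r = 0.88), Itprid2 (0.88) and Gpbp1l1 (0.87), and for Nr3c2 Ptpn3 (0.90), Prkag2 (0.84) and Sntb2 (0.84). Fkbp5 ran with Smad3 (0.82), Sec24d (0.78) and Gm8189 (0.76), and Zbtb16 with Cttn (0.82), Dennd5b (0.80) and Pam (0.75). Sgk1 ran with Marchf1 (0.90), Csmd3 (0.81) and Xkr4 (0.80). Tsc22d3 ran with Neat1 (0.93), a nuclear long noncoding RNA, Glul (0.90), the glutamine synthetase gene, and Ccdc152 (0.89). Pdk4 ran with Folh1 (0.86), Fgfr2 (0.83) and Myo6 (0.82), and Cdkn1a least closely, with Bcl2l1 (0.66), Ankrd13a (0.63) and Dip2b (0.61).

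Other genes known to be induced by the receptor, 20 in a list chosen with earlier results of these data known, were higher in PS19 in 24 of 160 tested gene-class pairs and lower in 0, beside 1.20% and 1.48% of all tests; 39 pairs were at an unadjusted p under 0.05, and DESeq2 called 9 higher and 0 lower. Oligodendrocytes had 11 of 18 higher, beside 2.56% of all genes, with a median log2 difference of 0.67 beside 0.00 over all genes, and astrocytes 6 of 19. By the naming rule these were Cebpd, a transcription factor of acute-phase genes, in 4 classes, Hif3a, an inhibitory member of the hypoxia-inducible family, in 4 and the repressor Bcl6 in 3. Hif3a stood at 24.3, 67.8, 52.4 and 33.3 CPM in oligodendrocytes, and at 10.0 and 58.5 CPM in the Y-called and Xist-called nuclei of TG_PS19. Chosen after their values were seen, Plin4, a lipid-droplet coat protein, stood there at 9.9, 52.2, 53.8 and 15.8 CPM (2.2 and 30.6 in the 2 parts of TG_PS19) and Klf9, a classic receptor target, at 91.4, 143, 154 and 97.2 (62.9 and 137). Cebpd, at 10.7, 25.7 and 26.7 CPM in WT and PS19, was at 5.0 and 9.6 in the 2 parts, both under WT. Against PS19 the whole TG_PS19 library had 20 pairs of the list lower and 0 higher, beside 1.55% and 3.20% of all tests (36 at an unadjusted p under 0.05; DESeq2 called 6 lower and 0 higher). With Y-called nuclei alone 24 were lower and 0 higher, and with Xist-called nuclei alone 11 were lower and 1 higher.

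Genes of the machinery around the receptor were not called in PS19. Of 186 pairs of chaperones and cofactors, such as Hsp90ab1 and Ncoa1, 0 were called by edgeR against WT, beside 2.68% of all tests, with 11 at an unadjusted p under 0.05, and DESeq2 called 0. Of 37 pairs of genes of hormone supply, 2 were higher and 3 lower by edgeR and 0 were called by DESeq2. Hsd11b1, which regenerates active hormone inside cells, was lower in PS19 astrocytes (log2 difference -0.61 ± 0.15) and oligodendrocytes (-1.54 ± 0.28), where it stood at 15.4, 5.3, 4.9 and 11.4 CPM, with 14.5 and 7.2 in Y-called and Xist-called TG_PS19 nuclei. Abcb1b, one of the genes of the transporter that pumps steroids out, was higher in PS19 microglia and oligodendrocytes.

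**Figure D4:**
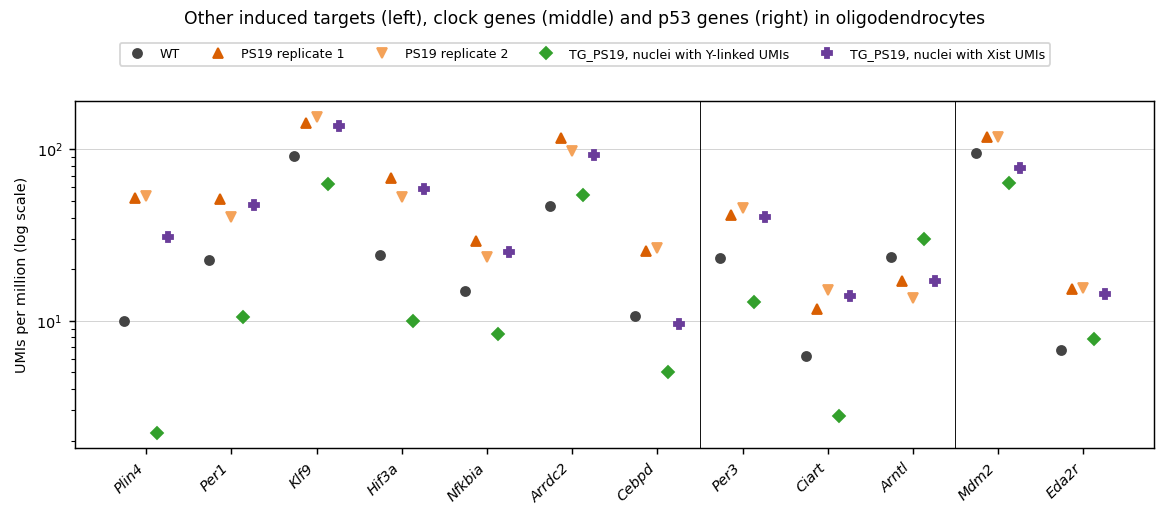
Level in oligodendrocytes (CPM, log scale, 1 point per library or part, no error bars) of genes from the lists of other induced targets, clock genes and p53 targets. Plin4 stands at 9.9 in WT, 52.2 and 53.8 in PS19 and 2.2 and 30.6 in Y-called and Xist-called TG_PS19 nuclei, and Arntl runs the opposite way, at 23.7, 17.1, 13.6, 30.1 and 17.1.

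Some clock and immediate early genes also differed between these libraries. Of 138 pairs of 13 clock genes, 14 were higher and 4 lower in PS19 by edgeR, beside 1.20% and 1.48% of all tests, and DESeq2 called 0 (12 at an unadjusted p under 0.05). Per3 was higher in 5 classes and Ciart in 3, and Arntl, which encodes the clock activator BMAL1 and peaks opposite to the Per genes, was lower in 2. Per3 in oligodendrocytes stood at 23.2, 41.3, 45.8 and 26.5 CPM, with 12.8 and 40.6 in Y-called and Xist-called TG_PS19 nuclei, and Arntl at 23.7, 17.1, 13.6 and 24.6, with 30.1 and 17.1. In astrocytes Arntl stood at 108, 55.9, 58.1 and 128 CPM, with 170 and 88.8. Of 56 pairs of immediate early genes, 2 were higher and 4 lower in PS19, and DESeq2 called 1 higher and 0 lower. The higher ones were in astrocytes, where Junb was at 13.6, 79.2, 76.4 and 5.7 CPM, and Fos at 5.0, 32.2, 12.3 and 2.7. The lower ones were Jun in oligodendrocytes, at 56.4, 38.5, 36.1 and 29.8 CPM, and Arc, Nr4a1 and Npas4 in CA1 neurons, the last at 26.3 CPM in WT and at 8.4 and 11.9 in PS19; Arc, Nr4a1 and Npas4 were named after their values were seen. Junb was at 2.6 and 6.7 CPM in the Y-called and Xist-called astrocytes of TG_PS19, both under WT. The part of what moved the clock and immediate early genes in the results on the members was not tested.

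Targets of p53 gave a second reading on Cdkn1a. Of 71 pairs of the list, 4 were higher and 0 lower in PS19 by edgeR, beside 1.20% and 1.48% of all tests, with 11 at an unadjusted p under 0.05 and 0 called by DESeq2. Eda2r was higher in astrocytes and oligodendrocytes. In oligodendrocytes it stood at 6.7, 15.4, 15.5 and 10.9 CPM, with 7.8 and 14.3 in Y-called and Xist-called TG_PS19 nuclei. Bax, which promotes cell death, stood in oligodendrocytes at 26.4, 42.1, 36.8 and 21.9 CPM and Mdm2, the ubiquitin ligase of p53, at 95.5, 119, 119 and 70.8; Mdm2, Bax and Ccng1 were each lower in TG_PS19 than in PS19 in 2 classes. In both parts of TG_PS19 these 3 genes were below PS19 in oligodendrocytes, Mdm2 at 63.5 and 78.4 CPM, Bax at 23.4 and 22.3 and Ccng1 at 8.9 and 14.7. Genes of fasting and FoxO control, which share Pdk4 as a target, had 2 of 53 pairs higher and 0 lower in PS19, beside the same 1.20% and 1.48% (9 at an unadjusted p under 0.05; DESeq2 called 0).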

How the data were processed

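Nuclei of frozen, pooled mouse hippocampus were captured in droplets and sequenced from the 3′ end (10x chemistry v3.1 on an Illumina sequencer, per the labels' protocols). The authors deposited filtered count matrices, whole-number UMI counts per gene and barcode, made with Cell Ranger 7.1.0 on GRCm38, per the submitters' processing notes. Strand and intron settings are not given in the sources used here.

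Nuclei with at least 500 UMIs, 300 genes and at most 5% mitochondrial UMIs were kept, and doublets (172 to 1303 per library) were removed by simulated doublets and nearest neighbours. Leiden clustering (leidenalg 0.10.2, resolution 1.0, 30 components of 2000 variable genes, the members left out) gave 35 clusters, named from 18 marker lists; 2.88% to 8.48% of nuclei stayed unnamed. UMIs were summed per class and library and tested with edgeR 4.0.16 (trimmed-mean scaling, its filter on low counts, quasi-likelihood F-test, Benjamini-Hochberg within a class), with 1 residual degree of freedom per class, from the PS19 pair. A standard error is the log2 difference divided by the square root of F. A joint edgeR fit with terms for library, class and group within class tested differences between classes. Class sums of the same library, which share animals, entered this fit as independent. DESeq2 1.42.0 and the other settings under the closing section are alternatives. Classes held 196033 to 11131298 UMIs per library; intervals are exact 95% Poisson or binomial ones and cover counting error only. On simulated oligodendrocyte counts (15578 genes) 77% of 2-fold and 96% of 4-fold changes were recovered, and on endothelial counts (6931 genes) 23% and 89%. The joint fit, on simulated counts of 3000 genes, recovered 13% of 2-fold and 74% of 4-fold changes set in oligodendrocytes alone.

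All 8 members are described. Genes of 7 other lists are named where called in at least 2 classes in 1 direction, at most 3 per list and comparison. For likeness the 3 genes with the highest correlation over sums are named, among those with a mean of at least 20 CPM. The members and lists were chosen with earlier results of these data known.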

Additional observations from a re-analysis of the deposited data

Results flagged for a closer look

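The difference of PS19 from WT varied between the 12 classes, by the joint edgeR fit with adjustment over all genes, for Zbtb16 (adjusted p = 2.78e-18), Sgk1 (3.82e-13), Fkbp5 (5.95e-11), Pdk4 (0.00358) and Nr3c2 (0.0388). Class sums of the same library, which share animals, count as independent in this fit, so its p-values may be too small. The largest called differences were those of Cdkn1a, Fkbp5 and Zbtb16 in glia and endothelial cells. Nr3c2 was called in fibroblasts, with the opposite sign. The difference of TG_PS19 from WT, which shares the WT library, varied for Zbtb16 (1.44e-14), Sgk1 (7.04e-11), Fkbp5 (0.000796) and Pdk4 (0.0278). With Y-called nuclei in every library it varied for 0 of the 8 members, beside 0.556% of all genes, which does not show that they moved alike.

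Outside the tested classes, a T-cell-like cluster held 47 Cdkn1a UMIs in the PS19 libraries together (16 and 31, in 21 and 25 nuclei), 0 in 6 WT nuclei and 5 in 7 TG_PS19 nuclei. The WT count of 0 rests on 6 nuclei, and the class was too small to test.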

How the results depend on the processing

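No paired analysis was possible because the groups compared share fewer than 2 replicate numbers. DESeq2 called 10 member pairs between PS19 and WT, 0 between TG_PS19 and PS19 (7 at an unadjusted p under 0.05) and 3 between TG_PS19 and WT, and over all genes 318, 704 and 159 tests where edgeR called 3897, 6895 and 3439. With nuclei thinned to 1000 UMIs the member pairs numbered 9, 1 and 6 and the tests over all genes 1012, 1358 and 560. With Y-called TG_PS19 nuclei alone 19 pairs were called against PS19 and 2 against WT. With Y-called nuclei in every library these were 20 and 2, over all genes 4091 and 1515, and 3 and 0 members varied between classes in those comparisons. With doublets kept 3 members varied between classes in PS19 against WT, and over the 4 largest classes 2 did in TG_PS19 against PS19. With nuclei thinned 2 did in TG_PS19 against WT.

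Of the 18 calls of PS19 against WT, 8 were kept by all 11 alternatives that give a test: Fkbp5 and Zbtb16 in astrocytes, fibroblasts and oligodendrocytes, and Sgk1 and Cdkn1a in oligodendrocytes. Pdk4 in oligodendrocytes was lost with nuclei thinned (edgeR adjusted p = 0.0587). Without PS19 replicate 1 or 2, which leaves fold changes with no test, Nr3c2 in fibroblasts ran from -0.84 to -0.25.

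In TG_PS19 against PS19, signs turned for Nr3c1 in dentate granule neurons with nuclei thinned (-0.089) and, with Xist-called nuclei, for Fkbp5 (0.32) and Zbtb16 (0.47) in oligodendrocytes. In TG_PS19 against WT, with Y-called TG_PS19 nuclei alone and then with Y-called nuclei in every library, Fkbp5 was at -0.65 and -0.74 in astrocytes, -0.74 and -0.49 in endothelial cells, -0.94 and -1.06 in fibroblasts, -0.38 and -0.46 in microglia and -0.29 and -0.26 in oligodendrocytes. Sgk1 in oligodendrocytes was at -0.79 and -0.81, Tsc22d3 in astrocytes at -0.45 and -0.51, and Zbtb16 at -0.30 and -0.27 in astrocytes and -1.09 and -1.04 in fibroblasts. The cause was not tested. Depth limits the smaller classes, where WT Fkbp5 rested on 17 UMIs in endothelial cells. The edgeR fit with adjusted residual degrees of freedom could not be fitted for other excitatory neurons.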
